A study of Rattus norvegicus with 12 samples.

Results

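The sarcomeric myosin heavy chains are the motor proteins of the thick filament, and 7 of their genes were chosen by symbol as rows of the raw count table (Myh1, Myh2, Myh3, Myh4, Myh7, Myh7b and Myh8), of 24648 rows in all. The data came from skeletal muscle of male rats aged 540 days, as 12 RNA-seq libraries. Control offspring were born to dams on a control diet, and restriction offspring to dams given a diet with 6% protein while pregnant and nursing, with no genotype or strain used to form groups. The titles carry 2 runs of numbers, called here set 1 (controls 3, 8 and 9, restriction 12, 13 and 15) and set 2 (controls 23, 28 and 29, restriction 32, 33 and 35), with 3 libraries in each of 4 groups. The series names soleus and extensor digitorum longus as its muscles, but the labels tie neither muscle to a library, so the sets keep their numbers. The labels name no animal, dam or litter for any library. The p-values thus reflect the variation among the sequenced samples only, part of which may be technical, and make no allowance for littermates.

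Each adult muscle fibre makes chiefly 1 or a few heavy chains, and the chain sets how fast the motor splits ATP and thus how fast the fibre shortens. Myh7 encodes the slow chain of type I fibres, which is also the beta chain of the heart. Myh2, Myh1 and Myh4 encode the fast chains of type IIA, IIX and IIB fibres, in order of rising speed. Myh3 and Myh8 encode the embryonic and perinatal chains, which are made in developing fibres and again when fibres regenerate. Myh7b is an ancient relative of Myh7 that carries a microRNA in an intron. Soleus is the textbook slow muscle of the rat hind limb and extensor digitorum longus a textbook fast one.

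In the RefSeq gene table (assembly GRCr8) Myh3, Myh2, Myh1, Myh4, Myh8 and Myh13 followed each other in that order on chromosome 10, with 0 protein-coding genes between neighbours. Myh7 lay beside Myh6, the alpha chain of the heart, on chromosome 15, and Myh7b lay on chromosome 3. The adult fast genes are therefore neighbours, and the 250 bases before the start of each are shown because the 3 genes were all higher in set 2. The windows are from RefSeq on GRCr8, whose build differs from that of the counts, and all lie on the plus strand, at chr10:52355489-52355738 for Myh2, chr10:52384662-52384911 for Myh1, chr10:52421898-52422147 for Myh4 and chr10:52268935-52269184 for the embryonic Myh3, shown for contrast. Capitals mark every run of 9 or more bases that the Myh2, Myh1 and Myh4 windows share on the same strand.
Myh2: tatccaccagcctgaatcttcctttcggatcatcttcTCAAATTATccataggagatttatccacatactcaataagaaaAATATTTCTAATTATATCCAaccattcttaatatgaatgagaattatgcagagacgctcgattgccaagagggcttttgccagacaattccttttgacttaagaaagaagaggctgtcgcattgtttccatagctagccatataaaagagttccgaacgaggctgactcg
Myh1: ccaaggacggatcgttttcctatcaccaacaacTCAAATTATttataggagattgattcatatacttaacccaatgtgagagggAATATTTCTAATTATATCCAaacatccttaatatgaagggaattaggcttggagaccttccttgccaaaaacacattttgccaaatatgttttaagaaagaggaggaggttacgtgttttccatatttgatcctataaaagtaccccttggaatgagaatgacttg
Myh4: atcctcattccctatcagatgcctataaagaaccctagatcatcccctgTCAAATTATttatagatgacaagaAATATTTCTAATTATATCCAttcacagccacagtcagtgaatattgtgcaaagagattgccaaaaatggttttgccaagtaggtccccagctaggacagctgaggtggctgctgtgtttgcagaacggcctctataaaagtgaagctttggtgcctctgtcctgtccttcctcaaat
Myh3: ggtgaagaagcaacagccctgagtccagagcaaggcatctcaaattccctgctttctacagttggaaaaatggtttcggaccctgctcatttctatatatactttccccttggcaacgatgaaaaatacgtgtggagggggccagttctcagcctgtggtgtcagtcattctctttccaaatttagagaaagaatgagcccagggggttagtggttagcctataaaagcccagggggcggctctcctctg

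The adult fast windows shared 2 such runs. The longer, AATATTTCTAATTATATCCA, has 20 bases and starts 170 bases before the start in Myh2, 166 in Myh1 and 177 in Myh4. Searched on both strands, it occurred in 5 of 33469 RefSeq windows (0.0149%), namely these 3 and 2 windows of LOC102555216. The shorter, TCAAATTAT, has 9 bases, starts 213, 217 and 201 bases before the same starts, and was found in 74 windows (0.221%). Neither run was found in the windows of Myh3, Myh8, Myh7 or Myh7b. Each window follows the annotated start, and bases outside it were not searched. The Myh8 and Myh7 windows end in the letters cag, as introns often do. Whether their annotated starts are those of the first exon was not tested, so absence there is no statement about their promoters. The letters TATAAA, searched on both strands, were in the windows of Myh2, Myh1, Myh4 and Myh3 and in 12.9% of all windows. The E-box letters CANNTG were in the windows of Myh7, Myh7b, Myh4 and Myh3 and in 65.5% of all windows. These are matches of letters, and no binding was measured.

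MicroRNAs that sit inside Myh7b, Myh7 and Myh6 were also found by their positions within these genes. Some of the mature forms are shown because the seed, given in capitals as bases 2 to 8, is what pairs with targets. The first lies within Myh7b, the second within Myh7 and the third within Myh6.
rno-miR-499-5p: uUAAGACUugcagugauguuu
rno-miR-208b-3p: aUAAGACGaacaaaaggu
rno-miR-208a-3p: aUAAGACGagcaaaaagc

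The seeds of rno-miR-208b-3p and rno-miR-208a-3p are the same (UAAGACG), and that of rno-miR-499-5p is UAAGACU. The kit is not one for small RNA, so the rows below do not measure the mature forms. The Mir208b row held 13, 23 and 20 counts in set 1 controls 3, 8 and 9, and 3, 3 and 13 in restriction 12, 13 and 15. In set 2 it held 0, 0 and 0 counts in the controls and 0, 1 and 2 in the restriction libraries. The Mir499 and Mir208a rows held 0 counts in all 12 libraries.

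Total counts ran from 22829692 to 38313704 per library, and all 7 genes passed the filter on low counts, which kept 14225 genes. On the first principal component (47.9% of the variance) the sets stood apart. The second (11.2%) placed control 23 at 88.0, with the other libraries between -23.7 and 19.6. All 10 skeletal muscle markers were detected, with summed levels of 132997 to 150420 CPM (counts relative to the library total, scaled by TMM) in set 1 and 158187 to 194939 CPM in set 2. Myh1, Myh2, Myh4 and Myh7 are among these markers, so the sums in part repeat the levels given below. These are bulk libraries, in which fewer fibres of a type and less RNA per fibre cannot be told apart. The heavy chains are close paralogs, so reads that could be split between 2 of them are uncertain, and the kit does not mark strand. Levels below are per gene across libraries, and transcript lengths were not used.

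The 7 genes took 3.34% to 4.18% of all counts in set 1 and 3.63% to 7.23% in set 2, with restriction 32 at 7.23% and control 23 at 3.63%. Between the sets, 6 of the 7 passed the test, with a background of 39.5% of all tested genes, and the same 6 had an unadjusted p under 0.05 (background 47.7%). Of these, 3 rose in set 2 (background 19.9%) and 3 fell (background 19.6%). The 3 that rose were the adult fast chains, and the 3 that fell were Myh7, Myh7b and Myh3. For all 6, no library of set 1 overlapped the range of set 2, as held for 18.7% of tested genes. The median log2 fold change of set 2 against set 1 was 0.22 over the 7 genes, 4 above 0 and 3 below, and -0.01 over all tested genes.

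**Figure D1:**
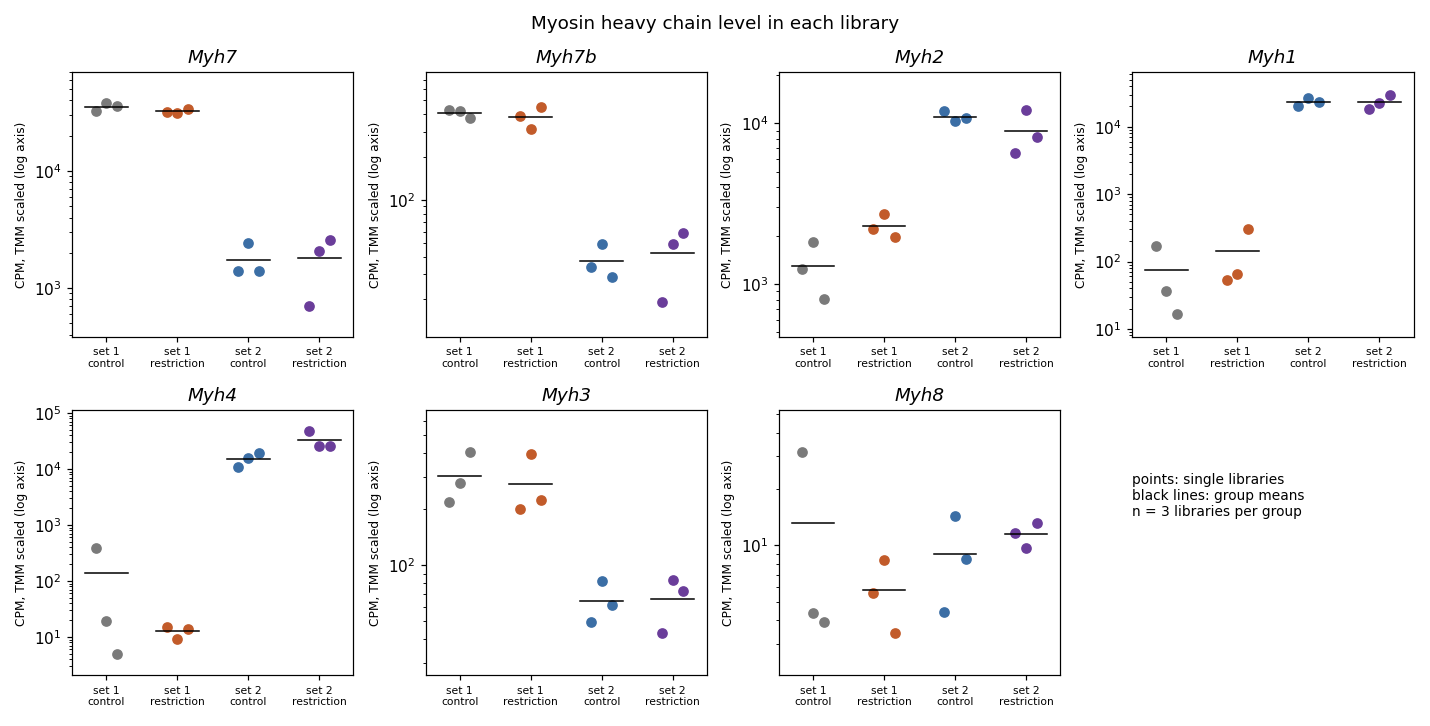
Level of each gene in every library, in CPM on a log axis, with 1 point per library by group and a bar at each group mean. Myh7 fills the range from 31172 to 38338 CPM in set 1 and reaches at most 2589 in set 2, while Myh4 spans 4.97 to 396 CPM in set 1.

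Among the slow chains, Myh7 measured 32535, 38338 and 35667 CPM in set 1 controls 3, 8 and 9, and 31641, 31172 and 34082 in restriction 12, 13 and 15. In set 2 it measured 1402, 2447 and 1405 CPM in controls 23, 28 and 29, and 702, 2089 and 2589 in restriction 32, 33 and 35. Every set 1 library was high and every set 2 library low, and restriction 32 was the lowest of all. In set 2 Myh7 fell by 4.26 ± 0.29 on the log2 scale (SE), which is 19.1-fold, with an adjusted p of 7.35e-08 in edgeR's quasi-likelihood test with Benjamini-Hochberg adjustment. The order of the group means was set 1 controls (35514 ± 2905 CPM, SD, n = 3), set 1 restriction (32298 ± 1563), set 2 restriction (1794 ± 978) and set 2 controls (1751 ± 603). Within each set the 2 diets overlapped.

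Myh7b, the gene that holds miR-499, measured 428, 422 and 378 CPM in set 1 controls and 389, 317 and 452 in the set 1 restriction libraries. Levels in set 2 were lower: the controls had 33.9, 48.9 and 28.7 CPM and the restriction libraries 19.2, 49.3 and 58.8. The sets did not overlap, and restriction 32 was again lowest. In set 2 Myh7b fell by 3.32 ± 0.24 (log2, SE), with an adjusted p of 1.58e-07 in edgeR. Its counts were 1.02% to 1.33% of those of Myh7 in set 1 and 2.0% to 2.73% in set 2, so the 2 slow genes did not fall in the same proportion in these libraries.

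Of the fast chains, the type IIA gene Myh2 had at least 806 CPM in every library. It measured 1238, 1812 and 806 CPM in set 1 controls and 2191, 2732 and 1962 in the set 1 restriction libraries. In set 2 it measured 11942, 10312 and 10786 CPM in the controls and 6525, 12162 and 8173 in the restriction libraries. The lowest set 2 library, restriction 32, was still above every set 1 library. Myh2 rose in set 2 by 2.53 ± 0.21 (log2, SE), or 5.78-fold, with an adjusted p of 4.96e-07 in edgeR. The group means ran from set 2 controls (11014 ± 838 CPM, SD, n = 3) through set 2 restriction (8953 ± 2899) and set 1 restriction (2295 ± 396) to set 1 controls (1286 ± 505), and the first 2 groups overlapped.

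Myh1, the type IIX chain, was low in set 1 and abundant in set 2. Set 1 controls 3, 8 and 9 had 169, 37.0 and 16.7 CPM, and restriction 12, 13 and 15 had 53.2, 65.0 and 307. Set 2 controls had 20034, 26510 and 22952 CPM and restriction libraries 18508, 22624 and 29920. In set 1, control 3 and restriction 15 stood above the other 4 libraries. Myh1 rose in set 2 by 7.83 ± 0.67 (log2, SE), or 228-fold, with an adjusted p of 7.49e-07 in edgeR. Without control 3 the log2 fold change was 8.58.

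Myh4, the type IIB chain, had the largest difference between sets of the 7 genes and also the largest spread. Set 1 controls 3, 8 and 9 had 396, 19.5 and 4.97 CPM, and restriction 12, 13 and 15 had 15.0, 9.10 and 13.9. Set 2 controls 23, 28 and 29 had 11042, 16044 and 19039 CPM, and restriction 32, 33 and 35 had 47519, 25650 and 26274. Control 3 was the only set 1 library above 20 CPM, and restriction 32 was the highest of set 2. Myh4 rose in set 2 by 9.07 ± 0.96 (log2, SE), or 536-fold, with an adjusted p of 5.59e-06 in edgeR. Without control 3 the log2 fold change was 10.83.

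Of the developmental chains, 1 passed between the sets and 1 did not. Myh3, the embryonic chain, measured 218, 276 and 407 CPM in set 1 controls and 200, 398 and 225 in the set 1 restriction libraries, against 49.9, 82.2 and 60.9 in set 2 controls and 43.2, 83.3 and 72.4 in the set 2 restriction libraries. The sets did not overlap and the diets did. In set 2 Myh3 fell by 2.14 ± 0.23 (log2, SE), or 4.39-fold, with an adjusted p of 6.44e-06 in edgeR.

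Myh8, the perinatal chain, had 31.4, 4.39 and 3.89 CPM in set 1 controls and 5.59, 8.33 and 3.42 in the set 1 restriction libraries. Set 2 controls had 4.40, 14.3 and 8.47 CPM and restriction libraries 11.6, 9.70 and 13.1, so the sets overlapped. It was the 1 gene of the 7 that did not pass between the sets, at a log2 fold change of 0.22 ± 0.46 (SE) and an adjusted p of 0.727 in edgeR. The high value was control 3, and without that library the log2 fold change was 1.07 ± 0.29 with an adjusted p of 0.012, which passes. It is thus a result that 1 library decides.

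As shares of the counts of all 7 genes, the slow chains Myh7 and Myh7b took 90.7% to 96.7% in set 1 and 0.984% to 4.50% in set 2. The adult fast chains took 2.22% to 8.09% in set 1 and 95.3% to 98.9% in set 2. Myh3 and Myh8 together took 0.597% to 1.17% in set 1 and 0.0747% to 0.174% in set 2. Myh7 alone held 92.9%, 93.7% and 95.7% in set 1 controls and 91.7%, 89.8% and 92.0% in the set 1 restriction libraries. In set 1 the share of Myh2 was 3.54%, 4.43% and 2.16% in controls and 6.35%, 7.87% and 5.30% in restriction libraries, which did not overlap. Levels did not overlap between these groups for 17.6% of tested genes.

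Set 2 libraries divided their counts among 3 fast chains. Myh1 held 45.0%, 47.8% and 42.3% in controls 23, 28 and 29 and 25.2%, 36.1% and 44.6% in restriction 32, 33 and 35. For Myh4 the shares were 24.8%, 28.9% and 35.1% in the controls and 64.8%, 40.9% and 39.2% in the restriction libraries. Myh2 held 26.8%, 18.6% and 19.9% in the controls and 8.90%, 19.4% and 12.2% in the restriction libraries. Myh1 was thus the leading row by counts in each set 2 control and in restriction 35, and Myh4 in restriction 32 and 33.

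**Figure D2:**
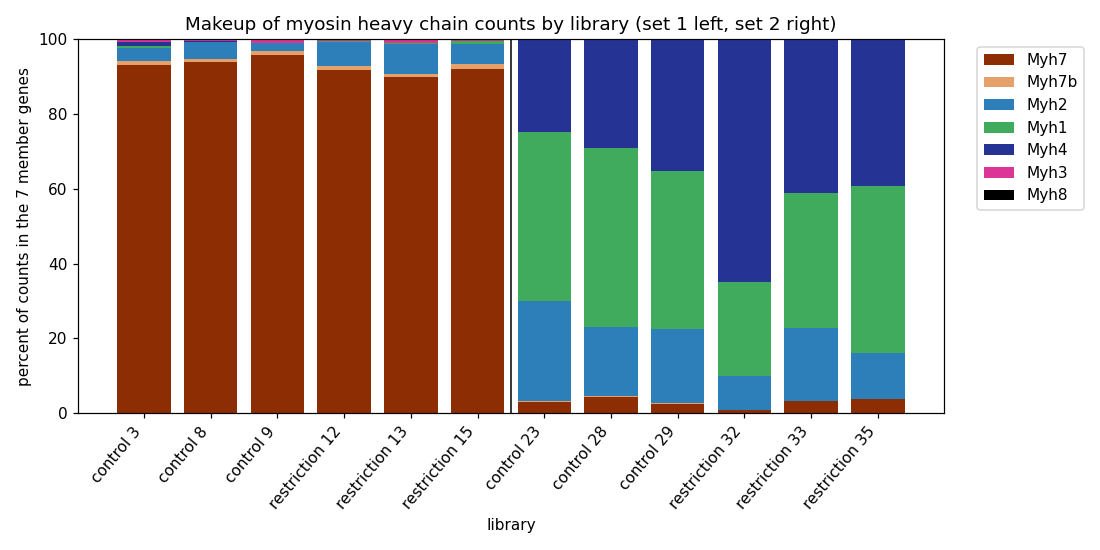
Percent of the counts of the 7 genes in each library, stacked by gene, with libraries grouped by set and diet. Myh7 fills 89.8% to 95.7% of every set 1 bar, while set 2 bars are split among Myh2, Myh1 and Myh4, with Myh4 at 64.8% in restriction 32.

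The spread among libraries of a group was uneven over the family. The residual SD of log2 CPM was 1.65 for Myh4, above that of 99.6% of tested genes, 1.11 for Myh1 (93.4%) and 1.00 for Myh8 (90.5%), where the median gene had 0.355. It was 0.56 for Myh7, 0.495 for Myh7b, 0.466 for Myh3 and 0.394 for Myh2. Myh7 was steady in set 1, with an SD of 0.119 in controls and 0.069 in restriction libraries, and had an SD of 1.01 in the set 2 restriction libraries. In set 1 controls the SD was 3.22 for Myh4, 1.70 for Myh1 and 1.68 for Myh8, so the widest spread of these 3 genes was in the group that holds control 3.

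Control 3 held 32.3 times the mean Myh4 level of controls 8 and 9, 7.59 times their Myh8 and 6.31 times their Myh1, but 0.946 times their Myh2 and 0.879 times their Myh7. Some other fast genes, but not most of those listed, were far higher in the same library. Actn3, the fast alpha-actinin, was at 29.3 times, Mybpc2, the fast myosin-binding protein C, at 27.6 times and Pvalb, the calcium buffer parvalbumin, at 23.4 times. The median over the 12 fast-fibre partner genes was 1.43 times, with Mylk2 at 0.808 and Tnnc2 at 0.864 times, so Actn3 and Pvalb were not typical of that list. Restriction 15 held 5.20 times the mean Myh1 level of restriction 12 and 13, 6.18 times their Mybpc2, 5.95 times their Actn3 and 5.98 times their Pvalb, but 1.15 times their Myh4 and 0.491 times their Myh8. Over the 12 fast-fibre partners its median was 0.878 times, so Actn3 and Pvalb were not typical of that list there either. These genes were named for control 3 and restriction 15 after their values were seen.

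In set 2, restriction 32 stood apart by its slow chains. It held 0.300 times the mean Myh7 level of restriction 33 and 35, 0.355 times their Myh7b, 0.555 times their Myh3, 0.642 times their Myh2 and 0.705 times their Myh1, with 1.83 times their Myh4. It was the lowest of the 6 set 2 libraries in 5 of the 7 genes, and the lowest in all 9 slow-fibre partner genes, whose median ratio was 0.328. The share of all tested genes in which this library was lowest was not computed. The 12 fast-fibre partners had a median ratio of 1.16 in restriction 32.

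**Figure D3:**
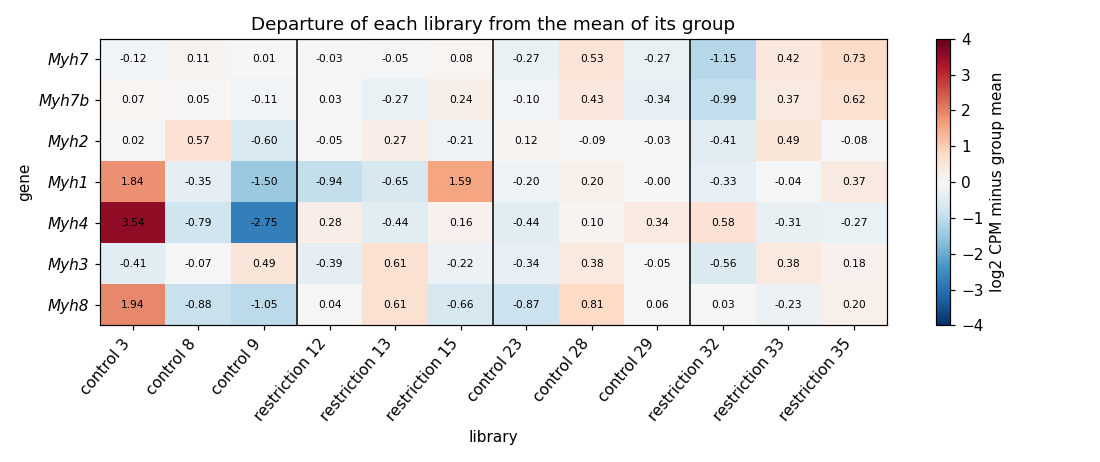
Departure of each library from its group mean, in log2 CPM, for the 7 genes (rows) and 12 libraries (columns), as a colour scale. Control 3 is far above its group in Myh4, Myh1 and Myh8, and restriction 32 is below its group in Myh7 and Myh7b.

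The question of the study's design is how restriction of the dam's protein bears on old offspring. None of the 7 genes was called between the diets averaged over both sets in edgeR (0 of 7, background 0.00703%). None had an unadjusted p under 0.05 in edgeR (0 of 7, background 7.83%), and DESeq2 and limma-voom called 0. With 1 library left out, 1 gene had one without control 3, 2 without control 8 and 1 without control 9, and none without any other library. The log2 fold changes of restriction against control were -0.05 ± 0.25 (SE) for Myh7, 0.05 ± 0.22 for Myh7b, 0.27 ± 0.20 for Myh2, 0.48 ± 0.50 for Myh1, -1.18 ± 0.69 for Myh4, -0.04 ± 0.22 for Myh3 and -0.43 ± 0.46 for Myh8. Their median was -0.04, beside -0.01 over all tested genes. Single libraries turned several of these values: without control 3 Myh4 was at 0.59, Myh8 at 0.42 and Myh1 at 1.23, and without restriction 15 Myh1 was at -0.15. The SE of Myh4 was more than 3 times that of Myh2, so the bound on a diet difference is much looser for the IIB chain than for the IIA chain.

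Within set 1, 0 of 7 were called in edgeR (background 0.00703%), and 2 had an unadjusted p under 0.05 (background 7.54%), Myh2 and Myh4. By that measure DESeq2 gave 2 and limma-voom 1, with 0 called. In edgeR it gave 3 with no filter, without control 8 and without control 9, and 2 without any other library. Myh2 was higher in every restriction library (1962 to 2732 CPM) than in any control (806 to 1812 CPM), as groups did not overlap for 17.6% of tested genes. Its log2 fold change was 0.84 ± 0.28 (SE), with an adjusted p of 0.528 in edgeR, so it did not pass. For Myh4 the log2 fold change was -3.47 ± 1.06 (SE), with an adjusted p of 0.526 in edgeR, and without control 3 it was 0.059. The values for the other genes were -0.14 ± 0.36 for Myh7, -0.08 ± 0.31 for Myh7b, 0.93 ± 0.71 for Myh1, -0.13 ± 0.31 for Myh3 and -1.19 ± 0.66 for Myh8. Myh1 was at -0.33 without restriction 15 and at 2.41 without control 3, and Myh8 at 0.49 without control 3.

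Adipocyte markers did not overlap between the diets in set 1 either. The summed level of 5 adipocyte markers, all detected, was 76.6 to 136 CPM in set 1 controls and 48.6 to 71.0 CPM in the set 1 restriction libraries, against 5.57 to 9.70 CPM in set 2. Their part in the Myh2 values was not tested. The 5 macrophage markers, all detected, summed to 123 to 317 CPM in set 1 and 33.7 to 61.4 CPM in set 2, and 6 fibro-adipogenic progenitor markers, all detected, summed to 383 to 622 CPM in set 1 and 208 to 298 CPM in set 2. The part of these cell types in the differences between sets was not tested either.

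Within set 2, 0 of 7 were called (background 0%), and 0 had an unadjusted p under 0.05 in edgeR (background 8.59%), DESeq2 or limma-voom, while 1, Myh4, did in edgeR on the set 2 libraries alone. With 1 library left out, 1 gene did without control 3 (Myh4) and 1 without restriction 32 (Myh7b), and none without any other library. Myh4 was higher in every restriction library (25650 to 47519 CPM) than in any control (11042 to 19039 CPM), where groups did not overlap for 12.7% of tested genes. Its log2 fold change was 1.11 ± 0.96 (SE) with an adjusted p of 0.735 in edgeR. Without control 3 the SE was 0.41 and the adjusted p 0.525. On set 2 libraries alone the SE was 0.28 and the adjusted p 0.812, and without restriction 32 the log2 fold change was 0.76.

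The balance of the IIB and IIX chains in set 2 was compared as a ratio. Counts of Myh4 per count of Myh1 were 0.551, 0.605 and 0.830 in controls 23, 28 and 29 and 2.57, 1.13 and 0.878 in restriction 32, 33 and 35. As a share of the 3 adult fast chains, Myh4 was 25.7%, 30.3% and 36.1% in controls and 65.5%, 42.4% and 40.8% in restriction libraries. Neither measure overlapped between diets, and the lowest restriction value lay close above the highest control value. Both measures are built from Myh4, whose levels did not overlap either, so they are not separate results. In set 2 the levels of 12.7% of tested genes did not overlap between diets. In the same libraries 5 tendon markers, all detected, summed to 66.2 to 91.6 CPM in controls and 116 to 193 CPM in restriction libraries. The 3 blood markers summed to 486 to 1725 CPM in controls and 233 to 326 CPM in restriction libraries. The part of either in the Myh4 values was not tested.

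The remaining log2 fold changes in set 2 were 0.03 ± 0.36 (SE) for Myh7, 0.19 ± 0.31 for Myh7b, -0.30 ± 0.28 for Myh2, 0.03 ± 0.70 for Myh1, 0.04 ± 0.31 for Myh3 and 0.34 ± 0.65 for Myh8. The difference between the sets in the diet effect was tested as an interaction, which called 0 of 7 in edgeR (background 0%), with 2 at an unadjusted p under 0.05 (background 9.5%). That number was 3 without control 8 and without control 9, and 2 without any other library. It was 1 with limma-voom and with the replicate block. For Myh4 this difference, set 2 minus set 1, was 4.58 ± 1.42 (log2, SE), with an adjusted p of 0.416 in edgeR, and it was 1.06 without control 3. For Myh2 it was -1.14 ± 0.39, with an adjusted p of 0.448 in edgeR. It was 1.53 ± 0.92 for Myh8, -0.90 ± 1.00 for Myh1 and between 0.17 and 0.28 for Myh7, Myh7b and Myh3.

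**Figure D4:**
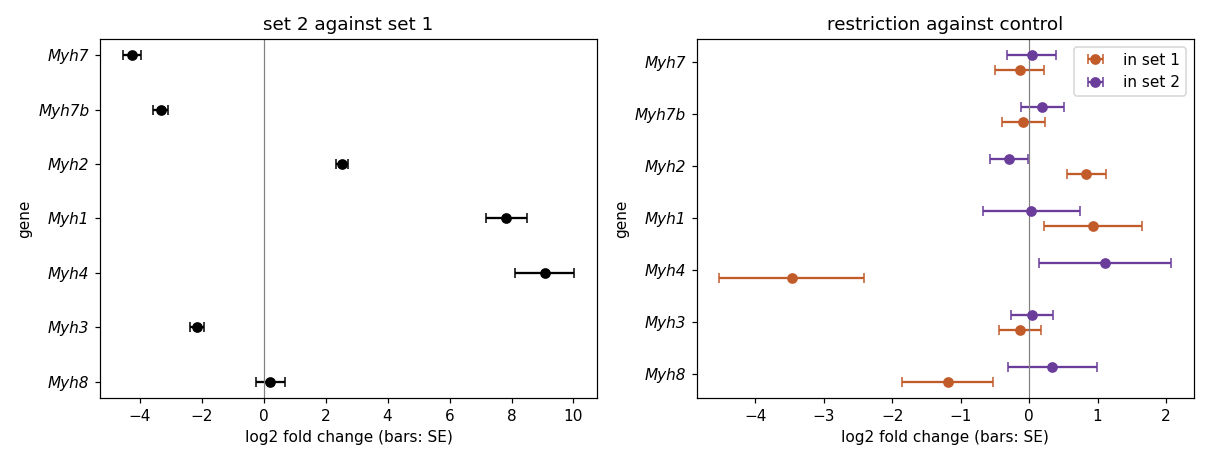
Log2 fold change with SE for each gene, set 2 against set 1 (left) and restriction against control in each set (right). The bars of Myh4 in the diet comparison are the longest, and the set 1 value of -3.47 comes to 0.059 without control 3.

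Other myosin heavy chains, taken from a list of 8, had 7 rows, of which 1 rose and 2 fell in set 2 (background 19.9% and 19.6%). Myh6, the neighbour of Myh7, ranged from 762 to 1937 CPM in set 1 and from 21.5 to 49.2 CPM in set 2, and fell by 5.11 ± 0.24 (log2, SE). Its counts were 2.44% to 5.47% of those of Myh7 in set 1 and 1.88% to 3.07% in set 2, and the 2 are near-identical paralogs whose reads may be shared. Myh10, a non-muscle chain, fell by 2.30 ± 0.20, and Myh13, the extraocular muscle chain at the far end of the fast cluster, rose by 2.71 ± 0.48. Myh13 was low throughout, at 0.203 to 1.32 CPM in set 1 and 1.04 to 6.79 CPM in set 2. Its value in restriction 32 lay within the set 1 range. The part of reads shared with the abundant fast chains in the Myh13 values was not tested. The log2 fold changes of those that did not pass were -0.31 ± 0.15 for Myh14, -0.15 ± 0.11 for the smooth muscle chain Myh11, 0.23 ± 0.32 for Myh9 and -0.45 for Myh15, which was at most 1.38 CPM in any library, had 0 counts in control 29 and was at 0.29 without control 9.

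Genes that fold myosin, hold the thick filament or break it down split both ways in set 2, with 5 of 17 higher and 4 lower in edgeR, near the background of 19.9% and 19.6%, and a median log2 fold change of 0.08. Mybpc2 rose by 8.15 ± 0.94 (SE), and by 9.82 without control 3. Fbxo32 and Fbxo40, ubiquitin ligase components, rose by 3.22 ± 0.48 and 1.73 ± 0.22, and Myom2, an M-band protein, by 0.87 ± 0.14. Myom3, its relative of the same band, fell by 3.91 ± 0.25.

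Among regulators of heavy chain genes, 16 of 29 rose and 4 fell in set 2 (background 19.9% and 19.6% of all genes), with a median log2 fold change of 0.45. Sox6, a repressor of slow genes, rose by 2.75 ± 0.25 (SE) and Mafa, a large Maf factor linked to Myh4, by 3.17 ± 0.22. Prox1, linked to the slow programme, fell by 3.95 ± 0.21. Calcineurin passes nerve activity to slow genes. Its regulatory subunit Ppp3r1 rose by 1.45 ± 0.11 and its inhibitor Rcan1 fell by 2.41 ± 0.22, and calcineurin activity was not measured.

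Myh3 is a gene of new fibres, and most tested genes of that kind, but not all, were lower in set 2 with it. Of 15 tested genes of newly formed or denervated fibres, 11 fell and 2 rose in edgeR (background 19.6% and 19.9%), with a median log2 fold change of -2.11 beside -0.01 over all genes. Chrnd and Chrna1, acetylcholine receptor subunits, fell by 3.27 ± 0.14 and 2.47 ± 0.16 (SE). Actc1, the cardiac actin of young fibres, fell by 5.25 ± 0.30, the myogenic factor Myog by 2.20 ± 0.16 and the adhesion molecule Ncam1 by 2.17 ± 0.16. Of the 15 genes 4 were above 0, among them Myl4 at 1.31 and Hdac4 at 0.86. Of contractile partners, all 9 tested slow-fibre genes fell (median -4.68) and all 12 fast-fibre genes rose (median 3.88), against the same background shares. In each of these lists the counts called moved by at most 1 gene when any single library was left out.

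No gene of these lists was called in any diet comparison in edgeR. Those with the smallest p in the mean over sets were Myh11 (0.20 ± 0.11, log2, SE) and Myh6 (-0.32 ± 0.21) among other heavy chains, and Mybph (-1.39 ± 0.50) and Myom3 (-0.60 ± 0.23) among thick filament genes. Among regulators they were Tead1 (0.56 ± 0.18) and Mef2c (0.27 ± 0.10), and among new-fibre genes Myog (-0.60 ± 0.15) and Pax7 (0.58 ± 0.21). Myl2 (-0.60 ± 0.27) and Tnnc1 (-0.33 ± 0.23) were those of the slow partners, and Tnni2 (0.32 ± 0.19) and Tpm1 (0.35 ± 0.22) those of the fast partners. Their adjusted p ran from 0.376 to 0.78.

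In set 1 the fast partners Tnni2 and Tnnc2 had log2 fold changes of 1.02 ± 0.28 and 0.71 ± 0.21 (SE), with 9 of 12 fast partners above 0 (49.5% of all genes were) and a median of 0.33, beside the Myh2 value of 0.84. Without control 3 all 12 were above 0, with a median of 0.87. Myh6 was at -0.72 ± 0.29 there, and Fbxo40 at -0.97 ± 0.31. In set 2 Tnnc2 and Myl1 were at -0.40 ± 0.21 and -0.37 ± 0.23, with 10 of 12 fast partners below 0 (51.5% of all genes were) and a median of -0.31. Control 23 was the highest set 2 library in 10 of these 12 genes, with 18112 CPM of Myl1 against 8636 to 10878 in the other 5, and without it 7 of 12 were below 0 with a median of -0.011. The regulators Tead1 and Mef2c were at 1.00 ± 0.26 and 0.46 ± 0.14 in set 2, where 24 of 29 regulators were above 0 (48.5% of all genes were, median of the list 0.25). Control 23 was the lowest set 2 library in 14 of the 29, and without it 21 were above 0 with a median of 0.26. How often control 23 was highest or lowest over all tested genes was not computed. Tbx15 was at -1.09 ± 0.35 in set 1, where 22 of 29 regulators were below 0 (50.4% of all genes were, median of the list -0.22). All 9 slow partners were below 0 in set 2, with a median of -0.45, and without restriction 32, the lowest library in each, 7 of 9 were below 0 with a median of -0.12. None of these genes passed, with adjusted p from 0.437 to 0.636.

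Likeness of pattern was described by Pearson's r of the departures of log2 CPM from group means over the 12 libraries, among 11125 genes with a mean of at least 1 CPM, as points that share each library's depth and makeup. Myh7 and Myh7b were nearest to each other (r = 0.958), followed for Myh7 by Tnnt1, slow troponin T (0.953), and Xirp2 (0.951), and for Myh7b by Atp2a2, the slow calcium pump (0.956), and Frmpd1 (0.955). Clec3b (0.946), Atp2b3 (0.921) and Kcnn3 (0.917) were nearest to Myh4, and Nadsyn1 (0.953), Polr2l (0.949) and Zfp133 (0.949) to Myh1. Nearest to Myh2 were Sap25 (0.943), Itpkb (0.912) and Podxl (0.887). B4galt2 (0.903), Fam177a1 (0.882) and Slc7a5 (0.880) were nearest to Myh3. Myh8 had Kcnn3 (0.963), Ift172 (0.960) and C1rl (0.938), so Kcnn3 was near both Myh4 and Myh8, the genes highest in control 3 within set 1. Single libraries weigh heavily in such r values. Restriction 32 had the largest departures of Myh7 (-1.15) and Myh7b (-0.99). Control 3 had those of Myh4 (3.54), Myh1 (1.84) and Myh8 (1.94). The r without these libraries was not computed.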

How the data were processed

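RNA-seq of 12 rat muscle libraries was analysed from the deposited table of raw counts per gene. Per the labels' protocols, total RNA came from a Trizol extraction and went into a TruSeq RNA kit. Per the submitters' processing notes, Trimmomatic, HISAT2, featureCounts and DESeq2 were used with the build Rnor_6.0, with versions not given in the sources used here. A second deposited table equals the counts times 1 constant per library and was not used. Counts were filtered with filterByExpr, scaled by TMM and fitted with 1 mean per group over all 12 libraries by edgeR 4.0.16 in R 4.3.3. Contrasts were tested by quasi-likelihood and called at a Benjamini-Hochberg adjusted p under 0.05. The SE given with a log2 fold change was derived from that test, as the absolute log2 fold change over the square root of F. Totals of 22829692 to 38313704 counts set the counting precision. Every pair of libraries within a group differed beyond counting noise (chi-square over its degrees of freedom, 24.5 to 146.6). Log2 CPM used a prior count of 2. Alternatives were DESeq2 1.42.0, limma-voom (limma 3.58.1), other scalings and filters, only 1 set, a replicate block and leaving out each library. The fits were tested on simulated data, where 77 of 100 genes changed 2-fold were recovered between sets and 67 for the mean over sets. For restriction in set 1 this was 45, in set 2 it was 37, and for the difference between sets it was 9. With 4-fold changes these were 98, 96, 86, 86 and 65, so a 2-fold diet difference could often be missed.

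The genes and lists were chosen with earlier results of these data known. The rule named the 7 genes throughout, other heavy chains with a row, up to 5 called genes per list by smallest p, the 2 with the smallest p where a diet comparison called none, and the 3 genes most like each of the 7. Of the genes so chosen, slow and fast partners between sets, some diet values within 1 set and all list values for the difference between sets are not printed. Marker lists for endothelial, smooth muscle and pericyte, and Schwann cells were also summed, with all markers detected and overlapping sums between the sets. Leaving out each library for the list counts, medians and signs was added after seeing the data. Sequences and gene order came from RefSeq tables of assembly GRCr8, matched by symbol for 7 of 7 genes. Shares of counts were not divided by coding length, as no lengths were used.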

Additional observations from a re-analysis of the deposited data

How the results depend on the processing

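Between the sets, Myh7, Myh7b, Myh2, Myh1, Myh4 and Myh3 kept their direction and stayed called in every alternative run, and Myh8 passed only without set 1 control 3 (1.07). With 1 library left out Myh8 ran from -0.015 to 1.07. The called total between sets was 5620, and 5486 to 6063 under other tools and scalings, and 4880 to 6450 with 1 library left out. Scaling by library size alone shifted the median of all genes to -0.11 and the split from 2832 higher and 2788 lower to 2102 and 3384. For the diet comparisons no alternative called any of the 7 genes. Their totals over all genes moved, from 1 to 55 (DESeq2), 0 (limma-voom), 11 (no filter) and 0 to 8 (leaving out libraries) for the mean over sets. In set 1 they moved from 1 to 38 (DESeq2), 3 (limma-voom), 6 (no filter), 5 (only set 1 libraries) and 1 to 22 with 1 library left out, the highest without control 23. In set 2 they moved from 0 to 40 (DESeq2), 3 (no filter) and 0 to 4 with 1 library left out, and for the difference between sets from 0 to 30 (DESeq2), 1 (no filter) and 0 to 1 with 1 left out. Signs of some diet values turned. Over both sets Myh7 was 0.0036 and Myh3 0.020 with library size alone, and Myh7b was -0.010 with limma-voom. In set 2 Myh7 was -0.11 with limma-voom. Leaving out libraries gave these ranges for the mean over sets: Myh7 -0.23 to 0.14, Myh7b -0.10 to 0.23, Myh1 -0.15 to 1.23, Myh4 -1.46 to 0.59, Myh3 -0.23 to 0.10 and Myh8 -0.65 to 0.42. For set 1 they were Myh7b -0.21 to 0.043, Myh1 -0.33 to 2.41, Myh4 -4.03 to 0.059, Myh3 -0.50 to 0.15 and Myh8 -1.63 to 0.49. For set 2 they were Myh7 -0.32 to 0.42, Myh7b -0.11 to 0.54, Myh1 -0.17 to 0.18 and Myh3 -0.16 to 0.27. For the difference between sets they were Myh7 -0.18 to 0.55, Myh7b -0.027 to 0.62, Myh1 -2.36 to 0.36, Myh3 -0.10 to 0.54 and Myh8 -0.14 to 2.02. The cause of these changes was not tested.

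Title numbers pair libraries of the sets only as a hint. The correlation of departures was 0.0791 to 0.175 over 6 pairs, 4 of them over 0.1, and 5 of 6 set 1 libraries correlated best with their own number. With a replicate block on the number the called total between sets was 5802, the 7 genes were at -4.37 (Myh7), -3.40 (Myh7b), 2.55 (Myh2), 8.42 (Myh1), 10.23 (Myh4), -2.12 (Myh3) and 0.61 (Myh8), and 0 genes were called for the difference between sets, where Myh4 was 2.18 and Myh2 -1.25. A block could not be fitted for the diet comparisons within a set or averaged over sets, where control and restriction libraries share no number.

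Scaling shares by coding length was not run. Myh8 had 82 to 935 counts per library, the fewest of the genes studied, and the 935 were in control 3, the library that decides its result between sets. Myh4 had 188 to 11770 counts in set 1.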
